A study of Rattus norvegicus with 6 samples.

Results

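The IL-6 family cytokine ligands are 7 secreted or released proteins, encoded by Il6, Lif, Osm, Il11, Ctf1, Clcf1 and Cntf, and this account follows their transcripts in cultured heart muscle cells given 1 of them as a protein. The members were every probe set that the platform table pairs with a single symbol from this list, and each of the 7 genes had 1 such probe set, among 15310 probe sets with a single symbol and 29215 in all. The cultures were primary cardiomyocytes from the ventricles of 2-day-old Sprague-Dawley rats, enriched by pre-plating that removes fibroblasts. They received human recombinant cardiotrophin 1 (hCT1, 0.5 nM) in serum-free medium for 24 h, or control serum-free medium alone, with 3 samples per group and 1 Affymetrix array per sample. The records name no transgene or deletion in either group. The sample records name a hypertrophic agonist in the growth protocol of all 6 samples. Their treatment protocol gives the controls serum-free medium alone, and that reading was used here. The records say that RNA was isolated in triplicate without naming separate cultures, so the p-values reflect only how far these samples scattered, and that scatter may be technical.

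All members of this family signal through gp130 (Il6st), a receptor chain shared between them, which activates Janus kinases and the transcription factor STAT3. IL-6 and IL-11 first bind their own receptor chains (Il6r, Il11ra1) and then a pair of gp130 chains. LIF, cardiotrophin 1 (Ctf1), cardiotrophin-like cytokine (Clcf1) and ciliary neurotrophic factor (Cntf) signal through gp130 joined to the LIF receptor (Lifr), with a further chain (Cntfr) for Clcf1 and Cntf products, and oncostatin M (Osm) through gp130 joined to its own chain (Osmr) or to Lifr. In the heart these cytokines are known for growth and survival of cardiomyocytes and for inflammatory signaling between muscle cells, fibroblasts and leukocytes. The added hCT1 was a human protein, and the Ctf1 probe set was designed for the rat transcript, so the comparison asks whether the treatment moved the cells' own transcripts for this family.

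The sequences upstream of the ligand genes are shown first, since Il6 was the 1 member whose transcript passed the test. RefSeq windows were at hand for 4 of the 7 members in assembly GRCr8, and the 250 bases before each annotated start are given 5′ to 3′ on the strand of the gene. Capitals mark matches, on either strand, to 6 motifs: the STAT motif TTCNNNGAA, the AP-1 motif TGANTCA, the cAMP response element (CRE) TGACGTCA, the κB motif, the C/EBP motif TTNNGNAAT and the TATA motif TATANA. Il6 lies at chr4:5894576-5894825 (minus strand), Il11 at chr1:78098372-78098621 (plus strand), Ctf1 at chr1:191758352-191758601 (plus strand) and Cntf at chr1:219314536-219314785 (minus strand).
Il6: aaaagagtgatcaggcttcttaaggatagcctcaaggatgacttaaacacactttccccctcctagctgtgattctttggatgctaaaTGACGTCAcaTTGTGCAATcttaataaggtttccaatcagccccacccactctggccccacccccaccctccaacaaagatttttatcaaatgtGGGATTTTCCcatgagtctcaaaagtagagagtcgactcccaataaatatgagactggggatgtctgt
Il11: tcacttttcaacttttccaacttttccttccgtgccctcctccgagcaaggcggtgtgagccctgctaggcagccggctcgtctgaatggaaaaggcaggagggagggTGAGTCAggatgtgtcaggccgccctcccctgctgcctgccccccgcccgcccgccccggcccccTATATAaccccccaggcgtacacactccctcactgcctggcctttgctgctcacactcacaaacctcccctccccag
Ctf1: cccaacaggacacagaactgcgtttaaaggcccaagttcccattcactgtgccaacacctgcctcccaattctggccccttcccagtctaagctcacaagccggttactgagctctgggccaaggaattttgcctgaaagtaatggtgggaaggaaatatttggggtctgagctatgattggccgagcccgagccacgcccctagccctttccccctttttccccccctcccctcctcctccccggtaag
Cntf: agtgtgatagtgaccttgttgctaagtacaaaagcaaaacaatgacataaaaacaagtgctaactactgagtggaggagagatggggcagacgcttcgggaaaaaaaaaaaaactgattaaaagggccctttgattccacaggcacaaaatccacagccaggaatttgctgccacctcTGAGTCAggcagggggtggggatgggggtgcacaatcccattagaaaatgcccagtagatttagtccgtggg

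No window was read for Lif, Osm and Clcf1. Of the 4 windows that were read, the Il6 window held 3 kinds of match that the others lacked. A CRE lay at bases -162 to -155 from the start, a C/EBP match (TTGTGCAAT) at -152 to -144 and a κB match (GGGATTTTCC) at -68 to -59. Among all 33469 windows of this length, 1.59% held a CRE, 10.9% the C/EBP motif and 6.33% the κB motif. The Il11 window held an AP-1 match at -142 to -136 and a TATA match at -77 to -72, and the Cntf window an AP-1 match at -72 to -66. AP-1 matches were in 6.34% of all windows and TATA matches in 24.2%. None of the 4 windows held TTCNNNGAA, the STAT motif, which was in 7.67% of all windows, and the Ctf1 window matched none of the 6 motifs. None of the matches overlapped another. The windows of Il6 and Cntf were less rich in G and C (44.4% and 46.4%) than those of Il11 (63.6%) and Ctf1 (56.4%), with a median of 51.2% over all windows. Such matches describe letters only and do not show that a factor binds.

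**Figure D1:**
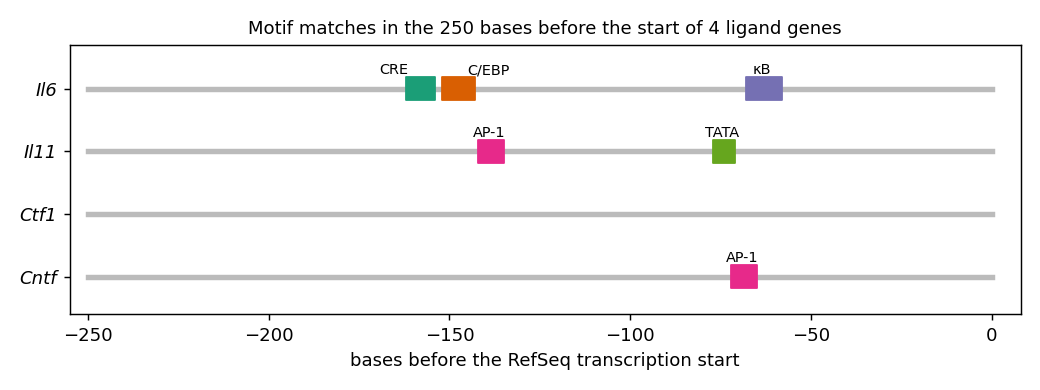
Positions of motif matches in the 250 bases before the RefSeq start of 4 ligand genes, with the distance from the start in bases on the x axis and 1 grey line per gene. Il6 shows CRE, C/EBP and κB matches, Il11 an AP-1 and a TATA match, Cntf an AP-1 match and Ctf1 none.

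Of the 7 ligand genes, Il6 rose with hCT1, none fell and 6 did not pass the test. The test was limma on the deposited log2 values, with p-values adjusted by Benjamini-Hochberg over all 15310 probe sets and a threshold of 0.05. At that threshold 14.8% of all tested probe sets were called, 4.98% as higher and 9.84% as lower with hCT1, so 1 call among 7 members was close to the background share. The call of Il6 is thus a result for that gene alone. At an unadjusted p under 0.05 the count was 2 members, Il6 higher and Lif lower. With an unadjusted limma p of 0.0476, Lif stood at place 4512 of the 15310 tested probe sets. Such p-values were thus common over all tested probe sets. Counts at this unadjusted threshold, here and below, are not read as results about a list. The median log2 fold change of the members was -0.01, against -0.0028 over all tested probe sets. Of the 7 values, 2 were above and 5 below 0. Of all calls 33.6% were higher with hCT1, and this share was 44.4% after another quantile normalization and 41.0% after centring each sample on its median.

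Il6, which encodes interleukin 6, the founding cytokine of the family, had log2 values of 4.69, 4.28 and 4.47 in control replicates 1 to 3 and of 4.89, 5.04 and 4.95 in the hCT1 replicates. The lowest treated value was above the highest control value, with a gap of 0.2 between the groups, and the controls were more scattered. The group means were 4.48 ± 0.21 and 4.96 ± 0.08 (SD, n = 3 each). Between the group means the log2 fold change was 0.48 (SE 0.1, 95% interval 0.26 to 0.70, limma adjusted p = 0.0121), a 1.40-fold rise with an interval of 1.20 to 1.63. In the order of p-values over all tested probe sets Il6 stood at place 973. An exact permutation test of 3 samples against 3 gave p = 0.1 (two-sided), the lowest that this design allows. Il6 was the 1 member whose groups did not overlap, where 34.3% of all tested probe sets had groups that did not overlap.

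The rise of Il6 was measured on a dim probe set. Its control mean lay at percentile 35.8 of all probe sets and its hCT1 mean at 42.6. Fold changes of dim probe sets on the RMA scale are compressed, so 1.40-fold may understate the change in transcript. A set of 202 olfactory (Olr) and vomeronasal (Vom1r, Vom2r) receptor probe sets was chosen afterwards, as genes with little transcript in heart muscle cells. Il6 was brighter than 96.5% of them in controls and 97.0% with hCT1. Olfactory receptors with Or symbols were not in the set, among them Or6z7, Or6z1 and Or10am5 with control means of 3.70, 3.76 and 4.37. The control means of the 202 probe sets ran from 1.95 (percentile 5) to 4.0 (percentile 95) on the log2 scale. Of these probe sets 2.48% were called higher and 0% lower. Their median log2 fold change was 0.06, against -0.0028 over all tested probe sets. Whether a shift of dim probe sets had a part in the rise of Il6 was not tested. Probe sets differ in brightness for the same amount of transcript, so the levels of the 7 ligands are not ranked against each other. The other members lay at percentiles 44.9 (Il11) to 71.1 (Lif) of control signal.

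**Figure D2:**
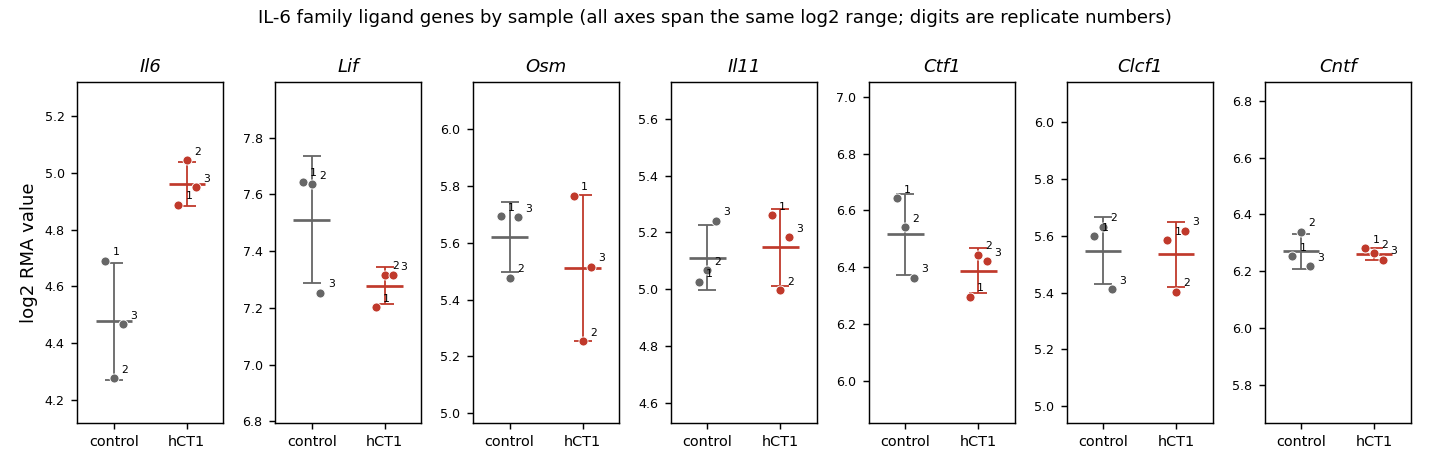
The log2 RMA value of each ligand gene (y axis) in 3 controls (grey) and 3 samples with hCT1 (red). Points are single samples with their replicate number, lines the means and bars the SD. Il6 is the 1 gene whose groups stand apart, at 4.28 to 4.69 against 4.89 to 5.04.

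Il11, the other ligand that acts through its own receptor chain and a gp130 pair, showed no such difference. Its log2 values were 5.02, 5.07 and 5.24 in control samples and 5.26, 5.0 and 5.18 with hCT1, with the highest and the lowest value of all both in the hCT1 group. Its mean differed by 0.04 on the log2 scale (SE 0.08, 95% interval -0.15 to 0.23, limma adjusted p = 0.815). Both groups spread over the same range, and the interval takes in small differences of either sign.

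Lif encodes leukemia inhibitory factor, a growth and survival factor for cardiomyocytes. Its log2 values were 7.64, 7.64 and 7.25 in controls and 7.20, 7.32 and 7.32 with hCT1. Control replicate 3 fell in the range of the treated samples, and the other 2 controls lay above it. Lif had a difference of -0.23 on the log2 scale (SE 0.1, 95% interval -0.46 to -0.0030, limma adjusted p = 0.162), with an exact permutation p of 0.3 (two-sided). Without control replicate 3 it was -0.36 with an adjusted p of 0.00928 from limma, so that 2 members were then called, and without any other sample it did not pass. The call for Lif thus depended on 1 control sample.

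Osm, which encodes oncostatin M, a cytokine made mainly by leukocytes, lies next to Lif on the rat chromosome in RefSeq gene order. Its log2 values were 5.69, 5.48 and 5.69 in controls and 5.77, 5.25 and 5.52 with hCT1. The groups overlapped, and hCT1 replicates 1 and 2 held the highest and the lowest of the 6 values. The treated mean less the control mean was -0.11 (SE 0.12, 95% interval -0.38 to 0.16, limma adjusted p = 0.585). Its pooled SD of 0.2 was at percentile 98.0 of all tested probe sets, the widest spread among the 7 members. The sign of its difference turned to 0.02 without hCT1 replicate 2.

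Ctf1 is the rat gene for cardiotrophin 1 itself, the ligand supplied as human protein. Its log2 values were 6.64, 6.54 and 6.36 in controls and 6.29, 6.44 and 6.42 with hCT1. Control replicate 3 again lay within the treated range. On the log2 scale the difference was -0.13 (SE 0.08, 95% interval -0.31 to 0.05, limma adjusted p = 0.318). In fold terms the interval ran from 0.807 to 1.04. It was negative in each of 14 alternative settings, from -0.20 to -0.06, and passed in none of them. Ctf2, the neighbouring cardiotrophin 2 gene, had a log2 fold change of 0.07 (95% interval of the fold 0.952 to 1.16, adjusted p = 0.498 from limma).

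Clcf1 and Cntf, ligands best known from the nervous system, had the differences closest to 0. Clcf1 had log2 values of 5.60, 5.63 and 5.41 in controls and 5.58, 5.40 and 5.62 with hCT1, nearly the same range in both groups. Its log2 fold change was -0.01 (SE 0.08, 95% interval -0.19 to 0.17, limma adjusted p = 0.934). Cntf had log2 values of 6.25, 6.34 and 6.22 in controls and 6.28, 6.26 and 6.24 with hCT1, so that the treated samples lay inside the control range. Its log2 fold change was -0.0081 (SE 0.06, 95% interval -0.14 to 0.12, limma adjusted p = 0.939). With a pooled SD of 0.05, at percentile 14.9 of all tested probe sets, Cntf was the most tightly measured member. The pooled SD was 0.12 for Ctf1 and Clcf1, 0.13 for Il11, 0.16 for Il6 and 0.17 for Lif, against a median of 0.08 over all tested probe sets. Members other than Cntf were thus noisier than a typical probe set, which widens the intervals given above.

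Cytokines related to the family by structure or by receptor type were measured for 7 of 10 listed genes. Of these 2 rose, none fell and 5 did not pass, and the same 2 had an unadjusted p under 0.05. The share called over all tested probe sets was 14.8%, with 4.98% higher and 9.84% lower. Csf3, which encodes granulocyte colony-stimulating factor, had log2 values of 4.28, 4.52 and 4.31 in controls and 4.83, 5.02 and 5.09 with hCT1. The groups stood apart, with a log2 fold change of 0.61 (SE 0.09, fold interval 1.33 to 1.75, limma adjusted p = 0.00227), on a probe set at percentile 34.3 of control signal. Like Il6, Csf3 was not called by the one-way test with Benjamini-Hochberg adjustment and was no longer tested once dim probe sets were filtered out. Ebi3, the soluble subunit shared by IL-27 and IL-35, had log2 values of 6.01, 6.08 and 5.89 in controls and 6.42, 6.22 and 6.30 with hCT1. Its log2 fold change was 0.32 (SE 0.07, limma adjusted p = 0.0202), and the call was lost when control replicate 1 or either of hCT1 replicates 1 and 3 was left out. Values on the same scale were 0.12 for Lep, 0.05 for Il12b, 0.03 for Il12a and 0.03 for Il23a, with adjusted p-values of 0.297 to 0.846 from limma. The other 3 listed genes were not analysed here.

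**Figure D3:**
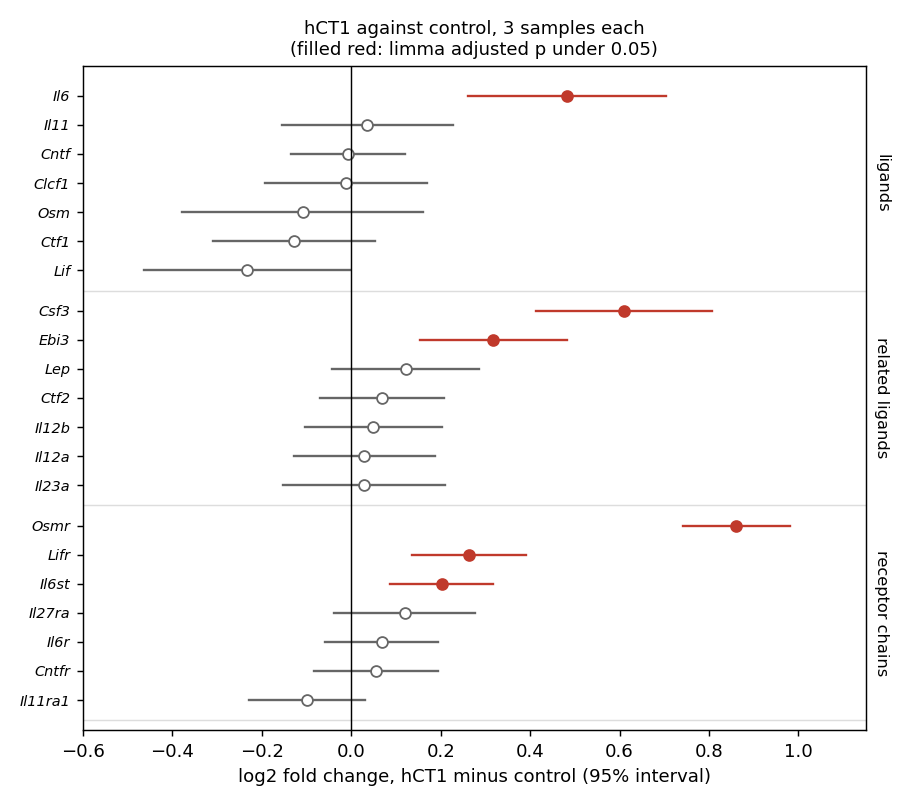
The log2 fold change of each gene, hCT1 minus control (x axis, 3 samples per group), with its 95% interval, for the ligands, related ligands and receptor chains. Filled red points mark genes past the limma threshold: Il6 among the ligands, Csf3 and Ebi3 among related ligands, and Osmr, Lifr and Il6st among receptor chains.

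The receptor chains for these ligands were measured for 7 of 8 listed genes, of which 3 rose, none fell and 4 did not pass. For comparison, 4.98% of all tested probe sets were called higher and 9.84% lower. The median of the 7 chains was 0.12 on the log2 fold change scale. Osmr, the oncostatin M receptor chain, had log2 values of 8.28, 8.33 and 8.30 in controls and 9.13, 9.19 and 9.16 with hCT1. Its log2 fold change of 0.86 (SE 0.05, limma adjusted p = 1.62e-05) stands beside the value of -0.11 for its ligand gene Osm. Lifr, the chain shared by LIF, cardiotrophin 1, Clcf1 and Cntf products, rose from 8.02 ± 0.04 to 8.29 ± 0.05 (SD, n = 3 each), which is a difference of 0.26 (SE 0.06, limma adjusted p = 0.0155). Il6st, the gp130 chain itself, rose from 10.58 ± 0.01 to 10.78 ± 0.0058 (SD, n = 3 each), which is a difference of 0.20 (SE 0.05, limma adjusted p = 0.0289). Osmr passed in each of 14 alternative settings. Lifr lost its call when control replicate 2 or either of hCT1 replicates 1 and 3 was left out, and the count was then 1. Il6st passed in 7 of 14 settings and in 1 of the 6 that left out a sample, the one without control replicate 3.

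The other 4 receptor chains did not pass. Il6r, the receptor chain specific to IL-6, had log2 values of 6.38, 6.27 and 6.36 in controls and 6.40, 6.41 and 6.41 with hCT1, a log2 fold change of 0.07 (SE 0.06, limma adjusted p = 0.453). Its interval in fold terms was 0.961 to 1.14. Il11ra1 had a log2 fold change of -0.10 (limma adjusted p = 0.285), Cntfr of 0.05 (adjusted p = 0.596) and Il27ra of 0.12 (adjusted p = 0.292). Il31ra was not analysed here. Among ligands and their own chains, Il6 passed where Il6r did not, and Osmr passed where Osm did not.

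Downstream of the receptors, 3 of 9 measured Janus kinase and STAT genes rose, none fell and 6 did not pass. An unadjusted p under 0.05 was found for 5 of the 9. Over all tested probe sets 4.98% were called higher and 9.84% lower. The 3 that rose were Jak2 (log2 fold change 0.77, adjusted p = 0.00017 from limma), Jak3 (0.29, adjusted p = 0.0151) and Stat3 (0.28, adjusted p = 0.00728). Without hCT1 replicate 1 or 3 Jak3 did not pass, and the count was 2. Of 18 measured feedback and adaptor genes 4 rose and 2 fell, beside the same shares over all tested probe sets. The higher ones were Socs3, the inhibitor that binds gp130 (1.36, adjusted p = 3.44e-06), Cish (0.45, adjusted p = 0.00634), the phosphatase gene Ptpn2 (0.28, adjusted p = 0.0299) and the adaptor gene Sos1 (0.23, adjusted p = 0.026). The lower ones were Socs6 (-0.35, adjusted p = 0.00893) and Pias4 (-0.25, adjusted p = 0.0177), all from limma. Socs3, Cish and Socs6 passed without each sample in turn, whereas the other 3 did not, and the count of 6 was 3 without control replicate 1 or hCT1 replicate 2.

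A list of regulators of the IL-6 family ligands, not of Il6 alone, was measured for 17 of 19 genes. Of these 4 rose, 1 fell and 12 did not pass, and 8 of the 17 had an unadjusted p under 0.05. Background shares were 4.98% higher and 9.84% lower over all tested probe sets. Zfp36, which encodes tristetraprolin, a protein that binds and destabilizes cytokine mRNAs, had log2 values of 8.19, 8.25 and 8.04 in controls and 8.70, 8.74 and 8.70 with hCT1. This is a log2 fold change of 0.55 (SE 0.07, limma adjusted p = 0.000882). Nfkbiz, which encodes a nuclear cofactor of NF-κB, rose by 0.45 on the log2 scale (SE 0.06, limma adjusted p = 0.00122). Both passed in each of 14 alternative settings. Junb, a subunit of AP-1, rose by 0.29 (adjusted p = 0.0133) and Cebpd, a C/EBP factor, also by 0.29 (adjusted p = 0.0315), and both lost the call without control replicate 2 or hCT1 replicate 1, Cebpd also without control replicate 3 or hCT1 replicate 3. Nfkb1 fell by 0.21 (limma adjusted p = 0.0269), but passed in 5 of 14 alternative settings only, and in neither of the 2 that rescaled the samples. The 12 that did not pass had log2 fold changes from -0.16 (Nfkb2, limma adjusted p = 0.131) to 0.17 (Jun, limma adjusted p = 0.115). Whether any of these genes acted on Il6 in these cultures was not tested.

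**Figure D4:**
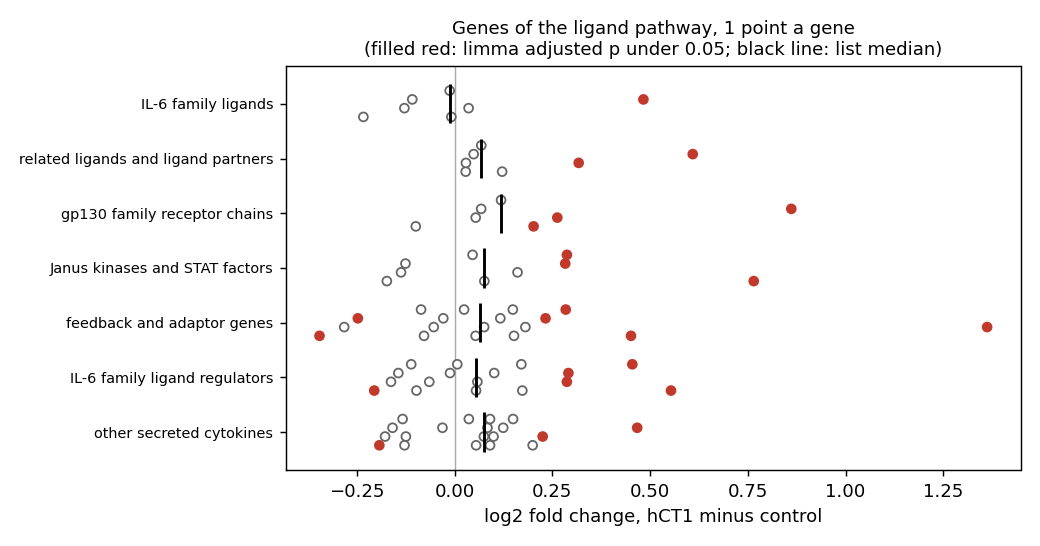
The log2 fold change, hCT1 minus control (x axis), of each measured gene in 7 lists of the ligand pathway, 1 point per gene, with filled red points for an adjusted p under 0.05 in limma and a black line at the list median. The ligands have 1 filled point, Il6 at 0.48, and a median of -0.01, and the receptor chains have 3 filled points and a median of 0.12.

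The genes whose 6 values ran most nearly in parallel with those of Il6 were Yipf6 (Pearson's r = 0.987), the secreted Wnt inhibitor gene Wif1 (0.985) and Moap1 (0.983). These are descriptions over 6 samples that fall into 2 groups, and 42 tested probe sets had an r over 0.95. None of the 3 passed the test, with log2 fold changes of 0.13, 0.19 and 0.15.

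Markers of the labelled cell type gave bright signals. Those of other cell types ranged from dim to equally bright, with Acta2 (smooth muscle) at percentile 99.9 and Col1a1 (fibroblast) at 99.3 of control signal. The 12 cardiomyocyte markers lay at percentiles 83.5 to 99.8 of control signal, with 4 lower and 0 higher with hCT1 (5 at an unadjusted p under 0.05). Of 11 fibroblast markers, at percentiles 31.1 to 99.3, none passed (3 at an unadjusted p under 0.05), and their mean log2 level was 8.50 to 8.53 in control and 8.46 to 8.50 in hCT1 samples. Of 12 macrophage and leukocyte markers, at percentiles 23 to 76, 1 was lower (Lyz2, -0.52), and their mean level was 5.03 to 5.12 and 4.95 to 5.07. Of 9 endothelial markers 1 was higher (Kdr, 1.18) and 1 lower (Emcn, -0.47), with mean levels of 6.57 to 6.68 and 6.75 to 6.78. Of 9 smooth muscle and pericyte markers, at percentiles 57.4 to 99.9, 3 were lower. Of 5 Schwann cell markers, at percentiles 21.2 to 52.9, none passed (0 at an unadjusted p under 0.05). The part of any of these cell types in the rise of Il6 was not tested, and in bulk RNA more cells of a type and more transcript per cell cannot be told apart. Pearson's r between samples over the whole table was 0.997 to 0.998 within groups and 0.994 to 0.996 between them.

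**Figure D5:**
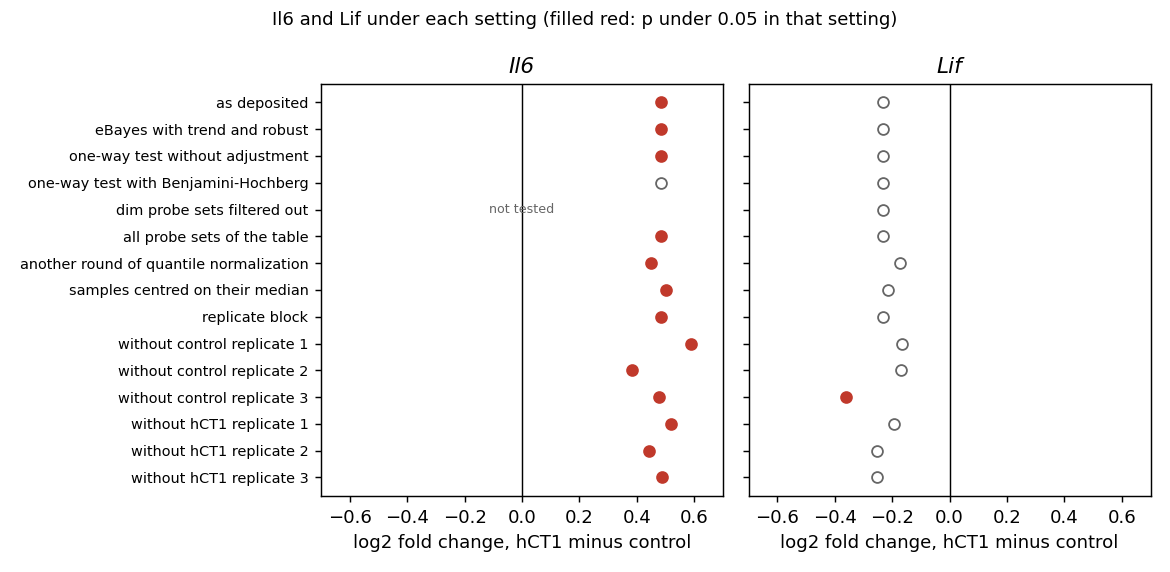
The log2 fold change of Il6 and Lif, hCT1 minus control (x axis), under the deposited values and each alternative setting (rows), with filled red points where p was under 0.05 in that setting. Il6 stays between 0.38 and 0.59 and passes in 12 of 13 alternatives, and Lif passes in 1, without control replicate 3. The one-way test without adjustment is read by its unadjusted p.

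The value for Il6 held in 12 of the 13 alternatives in which it was tested, including each of the 6 that left out a sample. Among the 12 is the one-way test without adjustment, a looser criterion read by its unadjusted p (0.0195). The log2 fold change of Il6 ranged from 0.38 without control replicate 2 to 0.59 without control replicate 1. The highest adjusted p with a sample left out was 0.0471 from limma. The exception was a one-way test, run per probe set and adjusted by Benjamini-Hochberg, which called none of the 7 members (1, Il6, without adjustment). The study names a one-way test for comparisons of several groups and no test for its arrays in particular. Once dim probe sets were filtered out, Il6, Osm, Il11 and Clcf1 were no longer tested and none of the other 3 members passed in limma (1, Lif, at an unadjusted p under 0.05).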

How the data were processed

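Total RNA of 6 samples, 3 with hCT1 and 3 with control medium, was hybridised to Affymetrix rat arrays. According to the submitters' processing notes, the authors used RMA in Affymetrix Expression Console (versions and genome build not given in the sources used here) and deposited log2 values, which were used unchanged. RMA corrects background, equalises quantiles between arrays and summarises each probe set. No detection calls come with the table, and the number of arrays limits the precision. Groups were read from the sample titles.

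Of 29215 probe sets, 15310 had 1 symbol, 323 several and 13582 none. All 7 member symbols matched RefSeq (GRCr8). The groups were compared in R 4.3.3 by limma 3.58.1, two-sided, using lmFit and eBayes with no trend. P-values of the 15310 probe sets were adjusted together by Benjamini-Hochberg, and the code was checked on simulated data. The robust fit drew on statmod 1.5.0. Of genes with several probe sets the brightest stood for the gene. Members and lists were chosen with earlier results of these data known. Genes were named if they were members, receptor chains or related ligands, if they were among the 4 largest called changes of a list, or if they were the 3 most parallel to the called member. Any further gene set beside a count was picked with its values in view. Alternatives changed the test, dropped dim probe sets, tested the whole table, renormalized, averaged a gene's probe sets, added a replicate term or left out a sample. In counts of alternatives passed, the one-way test without adjustment was read at an unadjusted p under 0.05. Dim probe sets were those under percentile 40 of mean signal among the 15310 tested, whereas percentiles of signal given for genes are over all 29215. Motifs were searched with Python.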

Additional observations from a re-analysis of the deposited data

How the results depend on the processing

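Of the 15310 tested probe sets 2268 were called. This count was 3950 by the one-way test without adjustment, 1051 by that test with Benjamini-Hochberg and 1334 with adjustment over the whole table. With 1 sample left out it ran from 1242 (without control replicate 2) to 2683 (without control replicate 3). The count of ligands was 0 by the adjusted one-way test (Il6 at the same 0.48, called without adjustment), 0 of 3 tested by limma once dim probe sets were filtered out (1 unadjusted), and 1 to 2 with a sample left out, where the second was Lif without control replicate 3. The count of Janus kinase and STAT genes was 5 with trend and robust eBayes and 5 by the unadjusted one-way test, and 2 to 3 with a sample left out. The count of feedback and adaptor genes was 2 by the adjusted one-way test and 3 to 8 with a sample left out, and that of receptor chains 1 to 3. Il6 ranged from 0.38 to 0.59 and Lif from -0.36 to -0.17 with a sample left out. Members close to 0 changed sign without passing: Clcf1 was 0.0017 after another quantile normalization, 0.0074 after centring and -0.080 to 0.054 with a sample left out, Cntf was 0.043, 0.012 and -0.034 to 0.027, and with a sample left out Il11 ran from -0.021 to 0.11 and Osm from -0.24 to 0.021. The cause of these changes was not tested. Averaging the probe sets of a gene left the counts of these 3 gene lists as they were.

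The deviations of same-numbered samples from their group means had r of -0.03, 0.05 and -0.28 for numbers 1 to 3. Those of differently numbered samples had r from -0.18 to 0.21. Deviations within groups of 3 depend on each other, so these values cannot decide whether same-numbered samples were paired. With the replicate block the count over the tested probe sets was 1500, that of feedback and adaptor genes 3, and Il6 kept its call (adjusted p = 0.0278 from limma). The filter on dim probe sets took its percentile over the 15310 tested probe sets. It removed Il6, Osm, Il11 and Clcf1, for which signal may limit what can be said. Over all 29215 probe sets their control means lay at percentiles 35.8, 50.9, 44.9 and 50.1.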

Other observations

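Other secreted cytokines and growth factors, outside the IL-6 family, were measured for 19 of 20 listed genes, of which 2 rose, 1 fell and 16 did not pass limma's test. This share of calls was close to the 14.8% over all tested probe sets, so the values below describe single genes and not the list. Cxcl12, a chemokine that attracts leukocytes and progenitor cells, had log2 values of 8.0, 8.03 and 7.83 in controls and 8.42, 8.32 and 8.52 with hCT1, a difference of 0.47 (SE 0.08, limma adjusted p = 0.00393). It passed in 13 of 14 alternative settings, the exception being the one-way test with Benjamini-Hochberg adjustment. Tgfb2, a growth factor gene, rose with a log2 fold change of 0.23 (limma adjusted p = 0.038), and its relative Tgfb3 fell with -0.19 (limma adjusted p = 0.0465). Of the 6 fits that left out a sample, Tgfb2 passed in 1, without control replicate 2, and Tgfb3 in none. The 16 that did not pass had log2 fold changes from -0.18 (Tgfb1, limma adjusted p = 0.242) to 0.20 (Il33, limma adjusted p = 0.22). Over the list the median was 0.08, against -0.0028 over all tested probe sets.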
